A study of Mus musculus with 18 samples.

Results

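Mkrn1 encodes makorin-1, a RING finger ubiquitin ligase that also carries CCCH zinc fingers and binds RNA. A RING ligase brings a ubiquitin-loaded E2 enzyme to a substrate, and ubiquitin chains built in this way can send the substrate to the proteasome. Makorin-1 has been described as a ligase for telomerase and p53, and it is found in mRNA protein complexes with poly(A)-binding proteins in mouse ES cells.

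Mkrn1 was selected on its large fall from undifferentiated ES cells to embryoid bodies (EBs) in these same arrays, so its levels against D0 and against the pool are given as a description, without a test. Its members were all cDNA clones whose only gene symbol in the probe annotation was Mkrn1. There were 3 such clones, with 6 spots, among 15360 clones printed in duplicate, 9866 of which carried 1 gene symbol. A cDNA clone set is a collection of cloned transcript fragments, and a spot reports all RNA that hybridizes to its fragment. In GRCm38.p6 the RefSeq annotation places Mkrn1 on chromosome 6 from 39397804 to 39423299, and a pseudogene of it, Mkrn1-ps1, on chromosome 5 from 88837799 to 88839399. RNA from near-identical copies cannot be told apart on such spots. The annotation does not place the clones within the exons or UTRs of Mkrn1.

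The arrays held 9 conditions of IMT11 mouse ES cells, an unmodified line derived from 129 mice. D0 were undifferentiated ES cells grown with LIF, the cytokine that holds mouse ES cells undifferentiated, in medium with foetal and newborn bovine serum. EBs were started as hanging drops of 1000 cells in the same serum and were collected at Days 1, 2, 3 and 4 after culture in medium lacking LIF (written D1-LIF, D2-LIF and so on) or containing it (written D1+LIF, D2+LIF and so on). Each condition was set against a pooled control on 2 arrays, 1 with the sample in Cy3 and 1 with it in Cy5, and the 18 arrays came from 2 biological sets whose match to the dyes is not given.

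All values are log2 ratios of sample to pool, with the median of each array set to 0 and the mean of duplicate spots taken for a clone. The direction of the deposited ratios was not stated. Sample over pool was assumed throughout, since the labels name the sample first and the pool second. Arrays of the same dye correlated across clones between -0.24 and 0.79 in Cy3 and between 0.48 and 0.93 in Cy5. The 2 arrays of a condition correlated between -0.51 and 0.55, with a median of -0.255, so most pairs were negatively correlated. Whether the 2 dyes share 1 direction was not tested. If the Cy3 arrays ran the other way, the difference of EBs without LIF from D0 was 0.24 for Mkrn1 and that of EBs with LIF was -0.03.

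The D0 array in Cy3 stood apart. Its slide 1 had a median log2 ratio of -2.73 and its slide 2 of -0.31 before centring, and its genes spread with an SD of 0.862, against 0.166 to 0.356 on the other Cy3 arrays. All comparisons with D0 share this array and its Cy5 partner. Among the Cy5 arrays the SD was lowest at D0 (0.402) and highest in D4+LIF (1.3). In Cy5 some arrays had lost spots, with 15249 values missing in D2-LIF and 7973 in D1+LIF, mostly on slide 1. Of the 15360 clones, 8740 had a value on every array, and they named 4679 genes. These included 2 of the 3 Mkrn1 clones, both on slide 2, and the fitted values of the gene rest on those. In bulk samples such as these, fewer cells of a type and less RNA per cell cannot be told apart.

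The clones are named here by the GenBank entries of their ends. Clone A (BG084343 and BG071488) and clone B (BG086697 and BG073982) lie on slide 2, and the third clone (BG078870 and BG065594) lies on slide 1. Duplicate spots agreed closely for the slide 2 clones, with a median difference of 0.08 on the log2 scale for clone A and 0.07 for clone B, against 0.08 over all clones and arrays. They agreed less for the slide 1 clone, with a median of 0.23 and a highest difference of 1.21 on the D2+LIF array in Cy5.

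Clone A was lower in EBs than in D0 on both dyes in every condition. As deposited, its 2 spots read 2.17 and 2.25 times the pool on the D0 array in Cy3, and 1.09 and 1.1 on the D0 array in Cy5. On the D4+LIF array in Cy5 they read 0.173 and 0.16, the lowest ratios of this clone, and on the D4-LIF array in Cy5 they read 0.226 and 0.259. In Cy3 the centred log2 ratio of clone A was 1.72 at D0, and then -0.66 in D1-LIF, 0.67 in D2-LIF, -0.29 in D3-LIF, -0.21 in D4-LIF, 0.08 in D1+LIF, 0.12 in D2+LIF, -0.31 in D3+LIF and, at Day 4, -0.27 in D4+LIF. Every EB array in Cy3 was thus below the D0 array, and D2-LIF was the nearest to it. In Cy5 clone A was at -0.11 at D0, and then at -2.82 in D1-LIF, -1.51 in D2-LIF, -1.67 in D3-LIF, -2.60 in D4-LIF, -2.61 in D1+LIF, -2.57 in D2+LIF, -1.81 in D3+LIF and, at Day 4, -3.38 in D4+LIF. Here too all EB arrays lay below D0 and D2-LIF was the nearest. Within a dye, the difference of clone A from D0 lay between -1.05 (D2-LIF) and -2.38 (D1-LIF) in Cy3, and between -1.39 (D2-LIF) and -3.26 (D4+LIF) in Cy5, the last of which is 9.6-fold lower.

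**Figure D1:**
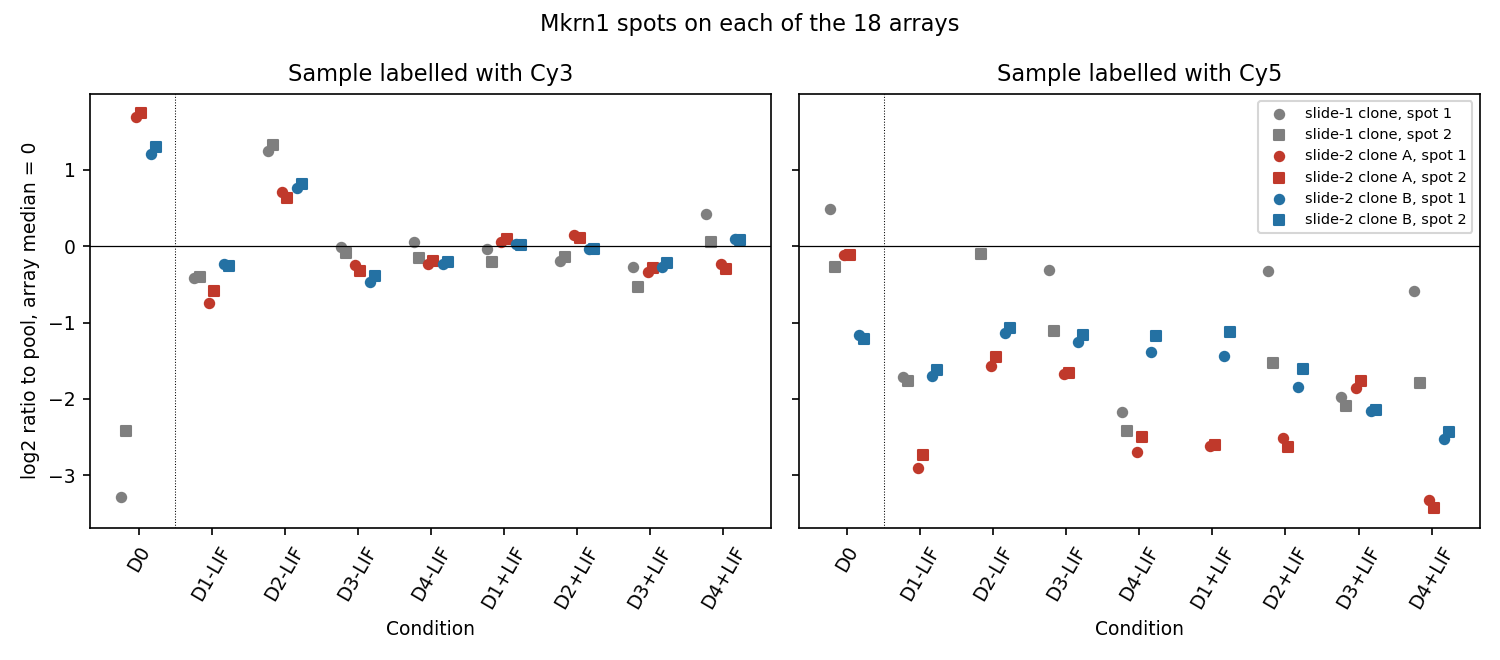
Log2 ratio to the pool (array median at 0) of each of the 6 Mkrn1 spots on the 18 arrays, with the sample in Cy3 on the left and in Cy5 on the right and conditions along the x axis. Clone A is red, clone B blue and the slide 1 clone grey, with circles and squares for the duplicate spots. The slide 2 clones were at 1.72 and 1.25 at D0 in Cy3, while the slide 1 clone was at -2.86 on the same array.

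Clone B was lower in EBs than in D0 on all Cy3 arrays, but in Cy5 much of this difference was missing. In Cy3 it was at 1.25 at D0, -0.25 in D1-LIF, 0.79 in D2-LIF, -0.43 in D3-LIF, -0.22 in D4-LIF, 0.03 in D1+LIF, -0.04 in D2+LIF, -0.25 in D3+LIF and, at Day 4, 0.09 in D4+LIF. In Cy5 it was at -1.18 at D0, -1.66 in D1-LIF, -1.10 in D2-LIF, -1.22 in D3-LIF, -1.28 in D4-LIF, -1.28 in D1+LIF, -1.72 in D2+LIF, -2.15 in D3+LIF and, at Day 4, -2.48 in D4+LIF. The Cy3 arrays of EBs all lay below D0, whereas in Cy5 4 conditions lay within 0.10 of D0, namely D2-LIF (0.08), D3-LIF (-0.03), D4-LIF (-0.10) and D1+LIF (-0.10). D4+LIF was again the lowest Cy5 array. The 2 slide 2 clones followed each other over the 9 Cy3 arrays (Pearson r = 0.94) more closely than over the 9 Cy5 arrays (r = 0.55). These arrays share their control pool, and both correlations are descriptions.

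The slide 1 clone went opposite ways in the 2 dyes. In Cy3 it was at -2.86 at D0 and between -0.41 and 1.28 in EBs, so that all 8 EB arrays lay above D0, by 2.45 to 4.14. In Cy5 it was at 0.10 at D0 and between -2.30 and -0.10 in the 7 EB conditions with a value, all below D0, with differences of -0.20 to -2.40. On its own slide 1 the D0 array in Cy3 was low as a whole. With each slide centred on its own median, this clone was at -0.70 there and between -0.40 and 1.54 in EBs in Cy3, and in Cy5 at 0.15 in D0 and between -2.33 and 1.49 in EBs. The Cy3 arrays of EBs were thus still all above D0, and the Cy5 arrays were below it in 6 of 7. Without the D0 arrays this clone followed clone A over the Cy3 arrays with r = 0.81 and clone B with r = 0.90, but with D0 these were -0.56 and -0.42. Over the Cy5 arrays they were 0.64 and 0.45 with D0, and 0.40 and 0.33 without it.

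**Figure D2:**
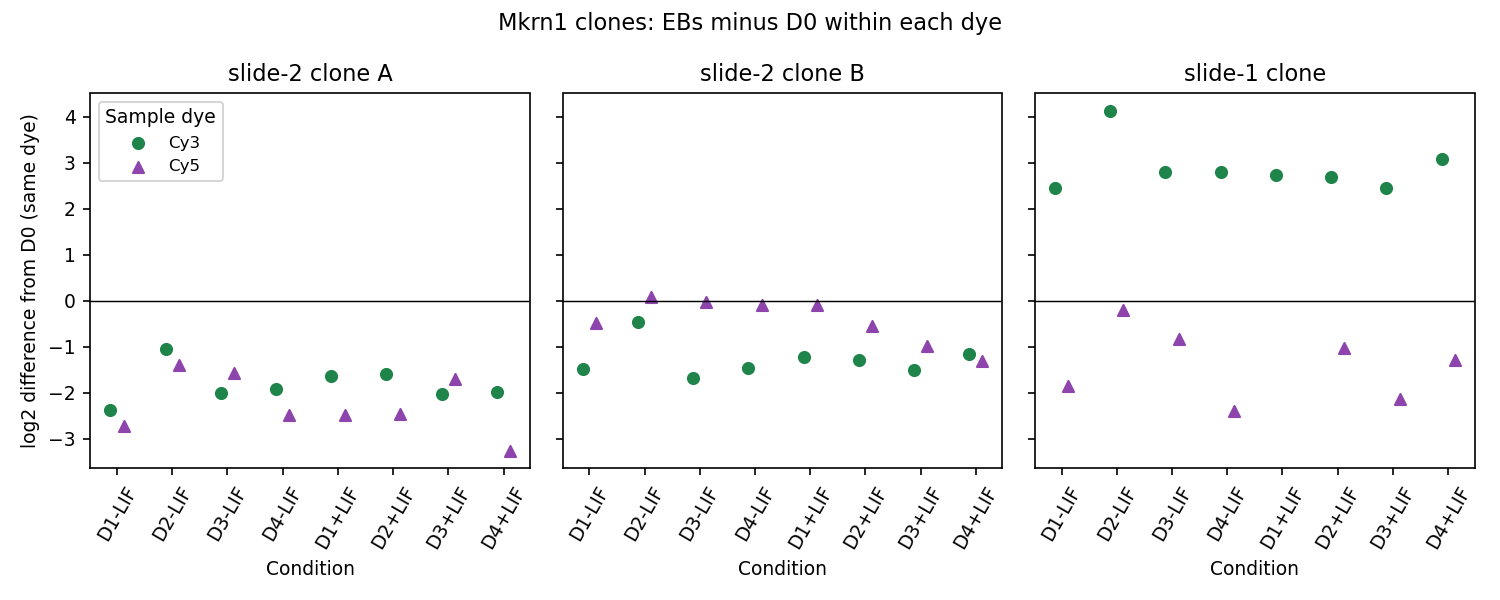
Log2 difference of each EB condition from D0 on arrays of the same dye, for clone A, clone B and the slide 1 clone, with Cy3 as green circles and Cy5 as purple triangles. All 16 points of clone A lie between -3.26 and -1.05, those of clone B between -1.68 and 0.08, and the slide 1 clone lies above 0 in Cy3 and below 0 in Cy5.

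Fitted separately among all 8740 complete clones, clone A in D4-LIF had the second lowest difference from D0 (-2.20, SE 0.38, rank 2), and in D4+LIF it ranked 11 (-2.62, SE 0.38). In D2+LIF it ranked 28, and in the other 5 conditions between 103 and 308. Clone B ranked between 621 and 3107. The size of the difference from D0 was thus unequal between clones of the same gene, with -1.22 to -2.62 for clone A and -0.19 to -1.23 for clone B.

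For the gene, the mean of clones A and B was 1.48 in Cy3 and -0.65 in Cy5 at D0. It ranged over the 8 EB conditions from -0.46 to 0.73 in Cy3, with a median of -0.15, and from -2.93 to -1.31 in Cy5, with a median of -1.96. All 8 EB arrays of each dye were below the D0 array of that dye, whereas against the pool 8 of 8 were below 0 in Cy5 and 5 of 8 in Cy3. D2-LIF in Cy3, at 0.73, was the EB array with the highest Mkrn1 ratio.

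Limma with 9 condition means and a dye term gave Mkrn1 a level of 0.42 (SE 0.23) in D0 against the pool. Among EBs the lowest level was in D4+LIF, at -1.51 (3.8-fold lower than D0), followed by D1-LIF at -1.35 (3.4-fold), D3+LIF at -1.13 (2.92-fold) and D4-LIF at -1.08 (2.81-fold). D2+LIF at -1.05 (2.77-fold), D1+LIF at -0.95 (2.57-fold), D3-LIF at -0.90 (2.49-fold) and D2-LIF at -0.29 (1.63-fold) came next, each with an SE of 0.23. From D4+LIF up to D3-LIF, neighbours in this order differed by 0.02 to 0.22, less than the SE of a difference (0.32). The step from D3-LIF to D2-LIF was 0.61 and that from D2-LIF to D0 was 0.70. EBs without LIF averaged -1.32 (SE 0.26) against D0 and EBs with LIF -1.58 (SE 0.26), each from 8 EB arrays and the 2 D0 arrays.

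The difference from D0 also depended on the spread of the arrays. It was -0.67 without LIF and -0.31 with LIF when all arrays were scaled to an equal median absolute deviation (MAD), and -0.84 and -0.76 after quantile normalization. It was -0.59 and -0.86 when a gene needed only 1 of the 2 arrays of every condition, which brings in the slide 1 clone. Without the D0 array in Cy3, D1-LIF differed from D0 by -1.66 and D2-LIF by -0.60, against -1.76 and -0.70 with it. At an equal MAD, D4+LIF was no longer the lowest, with a difference from D0 of -0.29. Falls were larger without LIF at Days 1, 3 and 4 (-0.83, -0.84 and -0.80), and with LIF at Day 3 (-0.69). They were smaller without LIF at Day 2 (-0.22), and with LIF at Days 1 and 2 (-0.11 and -0.16). After quantile normalization the largest fall was that of D1-LIF (-1.40), against -0.84 for D4+LIF.

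Mkrn1 was set beside all genes. The median difference from D0 over the 4679 genes was between -0.24 (D1-LIF) and 0.19 (D4+LIF). Counted from the lowest difference, Mkrn1 ranked 39 in D4-LIF (-1.49, SE 0.32), 50 in D4+LIF (-1.93, SE 0.32), 86 in D2+LIF, 130 in D3+LIF, 166 in D1-LIF, 198 in D1+LIF, 236 in D3-LIF and 293 in D2-LIF. On single dyes its rank ran from 63 to 447 in Cy3 and from 61 to 473 in Cy5. These ranks come from the values that chose the gene.

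**Figure D3:**
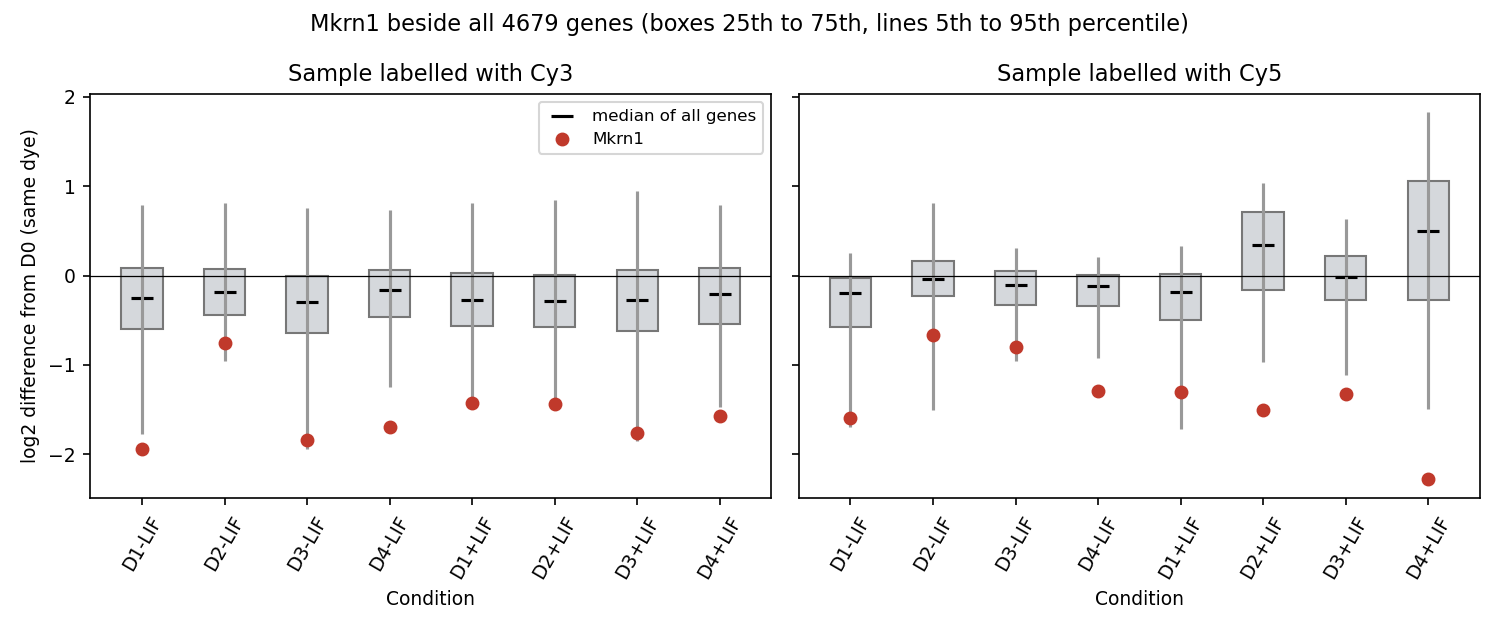
Log2 difference of each EB condition from D0 for Mkrn1 (red) beside all 4679 genes, with Cy3 on the left and Cy5 on the right. Boxes run from the 25th to the 75th percentile, lines from the 5th to the 95th, and dashes mark the median. Mkrn1 lay at -0.75 or lower in Cy3 and at -0.66 or lower in Cy5, below the box in every condition.

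Whether LIF altered Mkrn1 is a comparison that the choice of the gene did not use, apart from the known low value in D4+LIF. Over Days 1 to 4, EBs without LIF were 0.26 higher than EBs with LIF (SE 0.16, 95% interval -0.10 to 0.61). This difference did not pass the test (limma, adjusted p = 0.467 over all genes), and it was -0.01 in Cy3 and 0.52 in Cy5. Over Days 1 to 3 it was 0.20 (95% interval -0.21 to 0.61, limma adjusted p = 0.925). The median over all genes was -0.15 for Days 1 to 4.

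By day, Mkrn1 without LIF minus Mkrn1 with LIF was -0.40 at Day 1, 0.77 at Day 2, 0.23 at Day 3 and 0.43 at Day 4, each with an SE of 0.32. Day 2 was the largest, with 0.69 in Cy3 and 0.84 in Cy5 (95% interval 0.06 to 1.47), and it had an unadjusted p of 0.0359 and an adjusted p of 0.647 by limma. Day 4 gave -0.12 in Cy3 and 0.99 in Cy5 (limma adjusted p = 0.451). Adjusted p-values at Days 1 and 3 were 1. None of these 6 comparisons passed the test, and the intervals leave differences of up to 0.61 over Days 1 to 4 within reach. The sign was not stable to scaling either, being -0.37 with arrays at an equal MAD and -0.07 after quantile normalization.

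**Figure D4:**
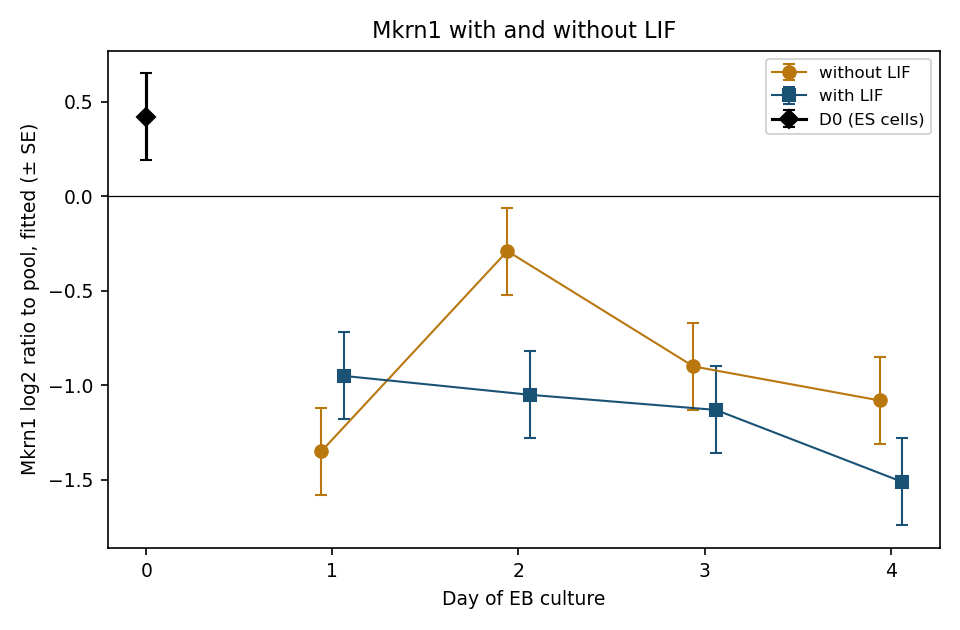
Fitted Mkrn1 log2 ratio to the pool by day of EB culture, without LIF (circles) and with LIF (squares), beside D0 (diamond). Each level rests on 2 arrays, and bars are 1 SE (0.23), pooled over all arrays after the dye term. EBs without LIF were above EBs with LIF at Days 2, 3 and 4 and below them at Day 1, and no day passed the test.

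The second makorin on the arrays, Mkrn2, is a RING and CCCH protein of the same family, encoded on chromosome 6 from 115601883 to 115621683 (GRCm38.p6). Its 1 clone lay on slide 1 and had no value on the D2-LIF and D1+LIF arrays in Cy5. In Cy5 it was at 0.04 at D0 and between 0.18 below and 0.18 above D0 in EBs. In Cy3 it was at -3.14 at D0 and 2.50 to 4.35 above that in EBs. The D0 array in Cy3 is the one whose slide 1 had a median of -2.73, and Mkrn2 was not tested. Mkrn3 had no clone with its symbol alone.

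Genes whose pattern was most like that of Mkrn1 were ranked by the lower of their Pearson r over the 9 Cy3 arrays and over the 9 Cy5 arrays. The first 8 were Gm3531 (0.96 in Cy3 and 0.99 in Cy5), Abcd4 (0.96 and 0.97), Sec31a (0.96 and 0.98), Uqcrb (0.98 and 0.96), Cks2 (0.95 and 0.98), Rpl21 (0.96 and 0.95), Rpl9 (0.95 and 0.95) and Orc6 (0.99 and 0.95). Gm3531 is annotated as a pseudogene, Abcd4 is a lysosomal transporter needed for vitamin B12, and Sec31a is a coat protein of vesicles that leave the endoplasmic reticulum. Uqcrb is a subunit of respiratory complex III, Cks2 a partner of cyclin-dependent kinases, Rpl21 and Rpl9 are ribosomal proteins and Orc6 is part of the origin recognition complex. Like clones A and B, all 8 genes were on slide 2. Of the 4679 genes fitted, 3993 were valued from slide 2 alone, so the slide does not set the 8 apart. All points share the pool, the dye and the array. Of 4678 genes, 61 reached a lower r of 0.9 and 236 reached 0.8, while the median was -0.48.

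At Day 4 with LIF the 8 genes differed from D0 by -1.13 (Uqcrb) to -2.39 (Abcd4), against -1.93 for Mkrn1, and in D2-LIF by -0.24 (Orc6) to -1.02 (Abcd4), against -0.70. Leaving out the D0 arrays kept 3 of the 8 among the first 8, with Orc6 ranked 1 (0.97 and 0.96), Uqcrb 2 and Cks2 4. Of the 8, 3 were also among the first 8 with each slide centred apart, 1 with equal MAD and 1 after quantile normalization.

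**Figure D5:**
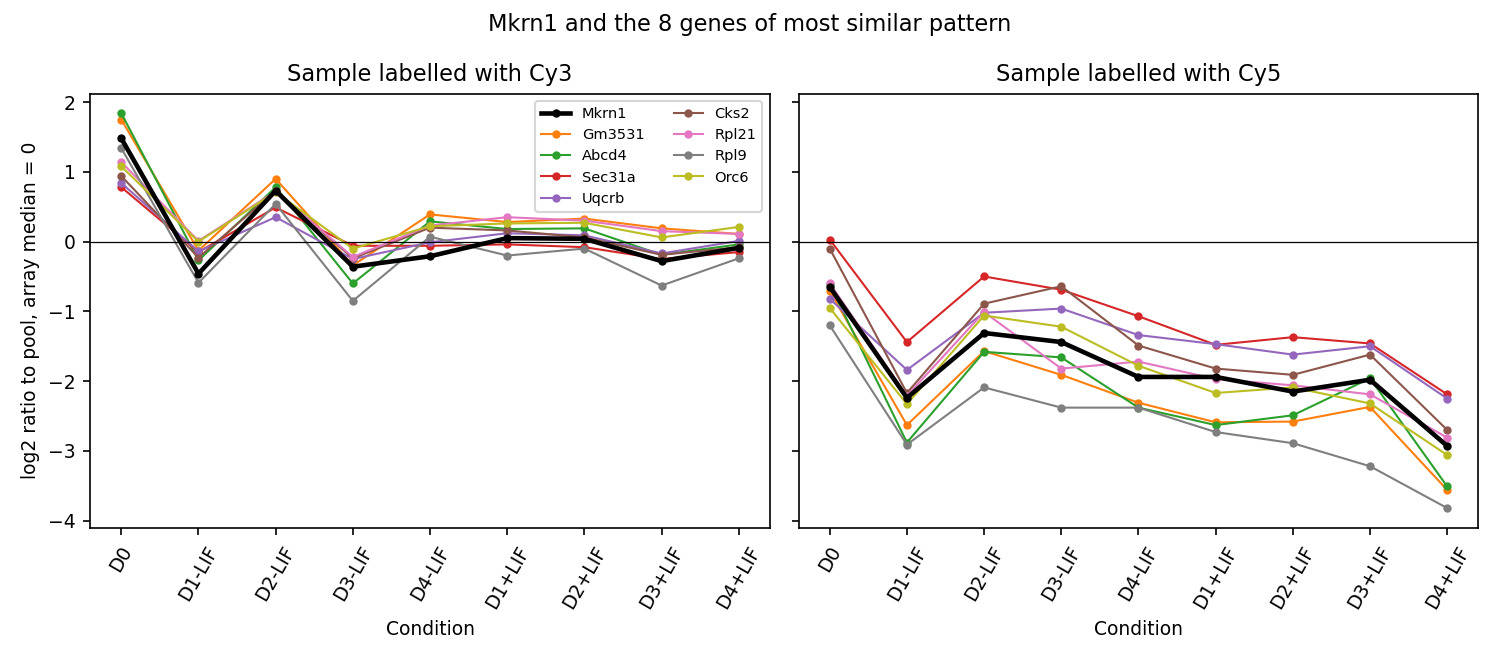
Log2 ratio to the pool (array median at 0) of Mkrn1 (thick black line) and of the 8 genes of most similar pattern, over the 9 conditions in Cy3 (left) and in Cy5 (right). In Cy3 the D0 and D2-LIF arrays are the high points, and in Cy5 all genes are lowest in D4+LIF, where Mkrn1 was at -2.93.

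The rest of the ubiquitin pathway was described by counts over lists of genes, beside the background of all 4679 genes. Against D0, limma at an adjusted p under 0.05 called 264 genes lower in D1-LIF (5.64%), 1 lower in D2-LIF (0.0214%) and 128 lower in D3-LIF (2.74%). With LIF it called 123 genes lower at Day 3 (2.63% in D3+LIF) and 157 lower at Day 4 (3.36% in D4+LIF), while 2 were called higher in D4+LIF (0.0427%) and none in the other conditions. None were called in D4-LIF, D1+LIF or D2+LIF by limma, where 409, 731 and 582 genes had an unadjusted p under 0.05. Over the 8 conditions 300 genes were called lower and 2 higher in at least 1, but with the ratios as deposited these were 158 and 1686, and with arrays centred on the tested genes 149 and 85. Lower calls over all genes thus prevailed with either centring, and higher calls with the ratios as deposited.

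Ubiquitin, the ubiquitin-like proteins and their E1 enzymes had 6 measured members. In D1-LIF 2 were called lower (33.3%, against 5.64% of all genes) and in D3-LIF 1 (16.7%, against 2.74%). Sae1, a subunit of the E1 for SUMO, fell in D1-LIF (-1.66, SE 0.42, limma adjusted p = 0.0421). Fau, a ubiquitin-like protein fused to a ribosomal protein, fell in D1-LIF (-1.76, SE 0.43) and in D3-LIF (-1.89, SE 0.43). The list's median in D1-LIF was -1.07, against -0.24 over all genes. Of 19 E2 enzymes none were called by limma, and Ube2d3, an E2 with a broad range of ligase partners, had the smallest p, with -0.75 (SE 0.20, adjusted p = 0.0511) in D1-LIF. In D1-LIF the median of the E2 enzymes was -0.19.

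The list of RING ligases other than Mkrn1 had 79 measured genes, among them Trim14 and Trim44, which lack a RING. In D1-LIF 1 was called lower (1.27%, against 5.64% of all genes), and in D4+LIF also 1 (1.27%, against 3.36%). Over the 8 conditions the list had 2 lower and 0 higher calls, but 1 and 32 with the ratios as deposited, and 0 and 2 with arrays centred on the tested genes. The lower calls were Rbx1, the RING subunit of cullin ligases, in D1-LIF (-1.72, SE 0.43) and Rnf44 in D4+LIF (-1.64, SE 0.40, with -0.62 in Cy3 and -2.66 in Cy5). The paper lists Rbx1 among the EB array genes that its RT-PCR did not bear out. The median of the RING ligases was -0.20 in D1-LIF and 0.33 in D4+LIF, where all genes had -0.24 and 0.19 and Mkrn1 had -1.76 and -1.93.

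The proteasome list, drawn up by symbol, had 32 measured genes. In D1-LIF 3 were called lower (9.38%, against 5.64% of all genes) and in D3-LIF 2 (6.25%, against 2.74%). D3+LIF and D4+LIF had 1 each (3.12%, against 2.63% and 3.36% of all genes). Psma3, of the core particle, was at -1.42 (SE 0.35) in D1-LIF, and Psmd8, of the regulatory particle, was at -1.04 (SE 0.25). Psmc5, an ATPase of the regulatory particle, fell in D1-LIF (-1.24), D3+LIF (-1.44) and D4+LIF (-1.36), each with an SE of 0.32. Psma6, also of the core particle, fell in D3-LIF (-1.45, SE 0.32), as did Psmd7, a lid subunit (-0.88, SE 0.21). The median of the list was -0.69 for D1-LIF, -0.70 for D3-LIF and -0.50 for D4+LIF, against -0.24, -0.21 and 0.19 over all genes. It held 8 genes that are no subunits, namely Psmc3ip, a meiotic recombination factor, Psme3ip1, and the assembly factors Psmg1, Psmg3, Psmg4, Pomp, Psmd5 and Psmd10. The 24 subunits left had the same numbers of calls, with medians of -0.79 for D1-LIF, -0.80 for D3-LIF and -0.76 for D4+LIF.

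The list of deubiquitinating enzymes, also drawn up by symbol and not checked for activity, had 38 measured genes. In D1-LIF 2 were called lower (5.26%, close to the 5.64% of all genes), Usp1 (-1.32, SE 0.35), which acts on monoubiquitinated DNA repair proteins, and Otud4 (-1.15, SE 0.30). Usp10 fell in D4+LIF (-1.64, SE 0.40), and Psmd7, which this list shares with the proteasome, in D3-LIF. Each was the list's only call there (2.63%, against 3.36% of all genes in D4+LIF and 2.74% in D3-LIF). The list's median was -0.30 in D1-LIF and 0.31 in D4+LIF, where all genes had -0.24 and 0.19.

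For the RNA-binding side of makorin-1, 7 RNA-binding partners were measured. D1-LIF and D4+LIF had 1 called lower each (14.3%, against 5.64% and 3.36% of all genes). Ybx1, a Y-box protein that packages mRNA, fell in D1-LIF (-2.0, SE 0.42) and in D4+LIF (-2.28, SE 0.42), and the list's medians there were -0.44 and -0.45. Of 19 other genes listed as CCCH zinc finger proteins, of which Zfp367 and Zc3hc1 are of other zinc finger types, none were called by limma, and Unkl had the smallest p, with -1.21 (SE 0.35, adjusted p = 0.0652) in D1-LIF, where the list's median was -0.29. In ribosome-associated quality control, 1 of 6 members was called (16.7% in D1-LIF, against 5.64% of all genes). This was Nemf, which marks stalled large ribosomal subunits for ubiquitination. It fell by 1.58 in D1-LIF, as well as in D3-LIF (-1.76) and, with LIF, in D3+LIF (-1.74), each with an SE of 0.29, and the list's median in D1-LIF was -0.76. Of the reported makorin-1 substrates 3 were measured, Fadd and Apc among them, and none were called by limma. Telomerase and p53 were thus not both measured. Apc, the tumour suppressor of the Wnt pathway, had the smallest p of these, with 0.89 (SE 0.30, adjusted p = 0.824) in D2-LIF, and it was at 0.72 (SE 0.30, adjusted p = 0.161) in D4+LIF, while the list's median in D1-LIF was 0.27.

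The label of the cells was checked against markers. Of the ES cell markers, 3 had a clone on every array, and each was called lower in at least 1 condition, with 66.7% called in D1-LIF (against 5.64% of all genes). None of the 3 were called with each slide centred apart or with arrays centred on the tested genes. Pou5f1, which encodes Oct4, fell in D1-LIF (-2.33, SE 0.48), Nanog fell in D1-LIF (-1.84, SE 0.38) and in D3+LIF (-1.72, SE 0.38), and Dppa5a fell in D3-LIF (-1.72, SE 0.40). Of 6 measured EB lineage markers 1 was called, in D1-LIF (16.7%, against 5.64% of all genes). This was Sparc, a matrix protein of extraembryonic endoderm, which was lower (-2.24, SE 0.45). The lineage markers had a median of -0.29 in D1-LIF and 0.16 in D4+LIF. The part of a shift in cell makeup in the level of Mkrn1 was not tested.

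These list calls rested on the centring and on the D0 array in Cy3. Across all lists 216 genes other than Mkrn1 were measured, of which 18 were called lower and 0 higher in at least 1 comparison with D0. Among all 4679 genes these counts were 300 and 2. Of the 216, 5 were called lower and 75 higher as deposited, and 4 lower and 3 higher with arrays centred on the tested genes. With each slide centred apart limma called 0 of the 216, where 111 had an unadjusted p under 0.05. Over all 4679 genes, limma with that centring called 14, and 2244 had an unadjusted p under 0.05. Without the D0 array in Cy3, 2 were called, Rnf44 lower and Trim71 higher, the second named after its value was seen. For LIF withdrawal over Days 1 to 4, limma called 0 of the 4679 genes, where 314 had an unadjusted p under 0.05.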

How the data were processed

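The study labelled RNA of ES cells and EBs with Cy3 or Cy5, hybridized each against a pooled control on 2 slides of the NIA 15K mouse cDNA set, and scanned them. The paper describes a pool of all samples, the labels one of EBs of Days 1 to 4. The authors normalized both channels to their mean intensities, and deposited linear ratios, 1 per spot and array where a value was kept. Their direction is not given in the sources used here. The study's methods describe a background cut-off from blank spots and a fold limit for its gene lists. These need the channel intensities or serve calling, and were not applied here. Channel intensities were not used here, so distance from background is unknown.

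Ratios of 34560 spots were taken to log2 and the copies of a clone, 160 spots apart, averaged. 3840 spots without a copy were left out, and 1 ratio of 0 was set to missing. The median over clones was subtracted from every array, and clones of a gene were averaged. Gene symbols came from the platform annotation, and 9760 clones were updated through RefSeq gene IDs. 274 clones with several symbols and 5220 with none were not named. Limma 3.58.1 (R 4.3.3) was fitted to 4679 genes valued on all 18 arrays, with 9 condition means and a dye term. Benjamini-Hochberg adjustment ran over all genes within each comparison. The script was tested on simulated data.

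The dye is the replicate and the block, so a difference between the biological sets may enter it. P-values measure the spread between arrays, and having 2 arrays per condition limits precision.

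Mkrn1, the lists and the tests were chosen with earlier results of these data known. Genes named with values were Mkrn1, the 8 of most similar pattern, every measured makorin, and from each list those called against D0 (up to 6) or else the one of smallest p. The lists were the makorin family, makorin RNA-binding partners, reported substrates, ubiquitin and E1 enzymes, E2 enzymes, RING ligases, deubiquitinating enzymes, proteasome subunits, CCCH proteins, ribosome-associated quality control, and ES cell and EB lineage markers. Alternatives were no centring, centring by slide or on tested genes, equal MAD, quantile normalization, no dye term, turned Cy3 signs, array weights, genes with gaps, spot medians and leaving out each array. List counts under other centrings, without the D0 array in Cy3 and without genes that are no such proteins were added after seeing the data.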

Additional observations from a re-analysis of the deposited data

How the results depend on the processing

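The mean difference of Mkrn1 from D0 kept its direction, with and without LIF, under every setting but the turned sign of the Cy3 arrays. With that sign turned, the difference with LIF was -0.03, well within its SE of 0.56. The mean difference without LIF (-1.32) became -0.91 with values as deposited, -0.67 with equal MAD, -0.84 after quantile normalization and -0.59 with genes valued on at least 1 array of each condition, and it reversed to 0.24 with the Cy3 arrays turned. With LIF (-1.58) these were -1.12, -0.31, -0.76, -0.86 and -0.03. Leaving out each array gave -1.44 to -1.20 without LIF and -1.70 to -1.45 with LIF. D3-LIF against D0 was -0.83 without its Cy3 array and -1.80 without its Cy5 array, and D4+LIF was -2.43 and -1.42. By condition, the turned sign gave 0.17 for D1-LIF, 0.05 for D2-LIF, 0.52 for D3-LIF, 0.20 for D4-LIF, 0.07 for D1+LIF and 0.21 for D3+LIF. D2-LIF against D0 also reversed after quantile normalization (0.03) and with genes that had gaps (0.19), and so did D2-LIF against the pool (0.13 and 0.01). D0 against the pool reversed with equal MAD (-0.28), turned signs (-1.06) and genes with gaps (-0.18).

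The effect of LIF withdrawal (0.26) reversed with equal MAD (-0.37) and after quantile normalization (-0.07). It passed the test under no alternative, and leaving out each array gave 0.13 to 0.38. Without the replicate block, that is without the dye term, it was 0.26 with an adjusted p of 0.939 by limma. The dye numbers the arrays within each condition, and no source ties arrays of the same dye to the same culture.

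Genes called against D0 in at least 1 condition (302) became 1844 with values as deposited, 14 with each slide centred apart and 47 with genes that had gaps. They became 0 by limma with equal MAD, quantile normalization, no replicate block and turned signs, where 975, 1064, 192 and 1216 genes had an unadjusted p under 0.05. Leaving out each array gave 45 (without the D0 array in Cy3) to 2079 (without the D4+LIF array in Cy3), with 545 without the D0 array in Cy5, 139 and 140 without the D1-LIF arrays, 179 without either D4-LIF array and 198 without either D2+LIF array. A condition left with 1 array was assumed to vary like the others. The causes were not tested. Ratios carry no signal over background, so how far dim spots compress the fall could not be measured.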
